A study of Mus musculus with 16 samples.

Results

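The genes described here are 37 genes of cholesterol and fatty acid synthesis, taken as a fixed list of names and measured in differentiating mouse embryonic stem cells after exposure to a hawthorn extract or to one of its fractions. They were 18 enzymes of sterol synthesis, 6 genes of sterol sensing, 9 enzymes of fatty acid synthesis and desaturation, and 4 genes of the LXR receptors and their targets. The list was chosen with earlier results of these data known. Probes of the genes were found on the arrays by gene name and, where the files carried only a RefSeq accession, through that accession. All 37 had a probe, and 36 were measured, each well above background on all 16 arrays, out of 30966 genes tested in the series. The exception was Abca1, the ATP-binding cassette transporter that exports cholesterol from cells, whose 1 probe was not well above background on any of the 16 arrays, and for which no difference is given.

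The cells were CGR8 mouse embryonic stem cells with a GFP reporter under the Myh6 promoter, left to differentiate spontaneously and treated on day 4. Cultures received the vehicle DMSO, WS1442, an ethanolic extract of hawthorn (Crataegus) leaves with flowers, at 0.25 mg/mL, or the MeOH eluate, a methanol fraction of that extract, at 0.1 mg/mL, for 6 h or for 24 h before RNA was taken. At each time point there were 2 DMSO, 3 WS1442 and 3 MeOH eluate cultures, 16 in all, with 1 one-colour Agilent array each. The line is 1 reporter line, the cultures were mixed populations, and the 2 DMSO cultures of a time point served as controls for both treatments. All 6 h arrays lay on 1 slide and all 24 h arrays on another, so that time and slide cannot be told apart in the levels. Every contrast with DMSO was made within a slide. Within each slide the DMSO arrays lay in column 1, the WS1442 arrays in columns 2 and 3 and the MeOH eluate arrays in 3 and 4. In the contrasts with DMSO, treatment and column of the slide cannot be told apart.

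Cells make cholesterol from acetyl-CoA through the mevalonate pathway, which yields isoprenoid units, then squalene, then lanosterol, and finally cholesterol by a series of demethylation, reduction and isomerisation steps. The transcription factors SREBP1 and SREBP2, made by Srebf1 and Srebf2, are held in the endoplasmic reticulum by SCAP and the INSIG proteins while sterols are plentiful. When sterols are low they are carried to the Golgi, cut and released, and they then turn on the genes of sterol and fatty acid synthesis, SREBP2 mainly the former and SREBP1 mainly the latter. LXR receptors respond to oxysterols and turn on genes of cholesterol export. Differentiating stem cells use the pathway for membranes and for sterol-modified signalling proteins.

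Promoters of 7 of these genes are shown because SREBP proteins act at proximal promoters together with the CCAAT-binding factor NF-Y and the GC-box factor Sp1, and because these genes include those with the largest rises at 6 h with the MeOH eluate (Hmgcs1, Idi1, Msmo1, Cyp51 and Insig1), the fatty acid synthase gene Fasn and, for contrast, Acat2, which passed the test in 1 comparison. They are RefSeq sequences of mouse build GRCm38.p6 from 250 bases before to 50 bases after the annotated start, written 5′ to 3′ on the gene's strand. The positions are Hmgcs1 (chr13:119690101-119690400, plus strand), Idi1 (chr13:8885356-8885655, plus strand), Cyp51 (chr5:4104648-4104947, minus strand), Msmo1 (chr8:64733529-64733828, minus strand), Insig1 (chr5:28071162-28071461, plus strand), Fasn (chr11:120824498-120824797, minus strand) and Acat2 (chr17:12960676-12960975, minus strand). Capitals mark every match, on either strand, to CCAAT, to GGGCGG and to TCACNCCAC, a form of the sterol response element, and in Fasn 2 CCAAT matches on opposite strands overlap by 2 bases.
Hmgcs1: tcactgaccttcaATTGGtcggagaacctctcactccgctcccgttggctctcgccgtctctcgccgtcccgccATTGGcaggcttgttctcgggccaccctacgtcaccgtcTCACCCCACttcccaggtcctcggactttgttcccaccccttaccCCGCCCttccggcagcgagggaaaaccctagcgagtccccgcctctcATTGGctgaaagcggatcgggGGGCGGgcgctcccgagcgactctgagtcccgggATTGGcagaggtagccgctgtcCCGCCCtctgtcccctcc
Idi1: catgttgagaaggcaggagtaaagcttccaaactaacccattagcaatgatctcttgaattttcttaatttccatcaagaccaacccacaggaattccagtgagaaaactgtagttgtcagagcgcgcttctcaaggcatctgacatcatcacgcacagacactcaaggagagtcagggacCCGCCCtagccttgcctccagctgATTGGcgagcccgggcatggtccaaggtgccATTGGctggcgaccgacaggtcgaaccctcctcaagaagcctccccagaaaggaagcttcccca
Cyp51: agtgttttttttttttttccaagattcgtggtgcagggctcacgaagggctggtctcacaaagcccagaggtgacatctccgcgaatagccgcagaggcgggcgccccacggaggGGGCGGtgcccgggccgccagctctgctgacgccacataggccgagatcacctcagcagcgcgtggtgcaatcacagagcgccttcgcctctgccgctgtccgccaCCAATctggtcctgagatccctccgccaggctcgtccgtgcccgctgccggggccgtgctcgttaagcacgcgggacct
Msmo1: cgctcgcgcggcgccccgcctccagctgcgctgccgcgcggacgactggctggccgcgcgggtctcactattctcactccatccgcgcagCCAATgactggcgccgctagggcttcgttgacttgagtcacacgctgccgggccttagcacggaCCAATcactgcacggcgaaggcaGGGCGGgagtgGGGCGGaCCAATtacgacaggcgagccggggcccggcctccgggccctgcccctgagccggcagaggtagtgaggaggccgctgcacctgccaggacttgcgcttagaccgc
Insig1: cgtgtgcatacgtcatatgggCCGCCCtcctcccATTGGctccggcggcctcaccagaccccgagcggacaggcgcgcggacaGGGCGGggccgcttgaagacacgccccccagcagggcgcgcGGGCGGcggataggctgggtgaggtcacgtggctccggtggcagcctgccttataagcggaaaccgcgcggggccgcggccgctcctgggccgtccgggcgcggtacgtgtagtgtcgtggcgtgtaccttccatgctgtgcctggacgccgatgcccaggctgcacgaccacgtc
Fasn: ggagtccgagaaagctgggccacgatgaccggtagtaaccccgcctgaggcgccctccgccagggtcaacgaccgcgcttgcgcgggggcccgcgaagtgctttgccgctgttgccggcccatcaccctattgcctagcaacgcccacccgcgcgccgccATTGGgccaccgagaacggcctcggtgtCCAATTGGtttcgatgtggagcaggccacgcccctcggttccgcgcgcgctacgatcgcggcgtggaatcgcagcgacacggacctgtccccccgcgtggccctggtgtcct
Acat2: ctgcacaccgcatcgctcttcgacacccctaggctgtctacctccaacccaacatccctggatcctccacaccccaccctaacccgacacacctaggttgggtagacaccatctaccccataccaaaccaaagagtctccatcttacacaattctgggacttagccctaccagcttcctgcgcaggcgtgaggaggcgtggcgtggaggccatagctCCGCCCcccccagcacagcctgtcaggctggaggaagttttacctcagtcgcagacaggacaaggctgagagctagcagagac

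The table of promoters held 29 of the 37 genes. Of the 15 sterol synthesis genes with an entry, 14 held CCAAT, the exception being Acat2, against 41.1% of all 27025 genes in the table (37.4% of its 32851 promoters). GGGCGG was found in 14 of the 15, the exception being Pmvk, against 38.2% of all genes. TCACNCCAC was found in 1 of the 15, Hmgcs1, at positions -137 to -129 relative to the start, against 1.4% of all genes. In the fatty acid synthesis list 3 of 6 genes with an entry held CCAAT, in the sterol sensing list 4 of 5 and in the LXR list 1 of 3. Mvk and Ebp, which like Acat2 were called higher in 1 comparison, held both CCAAT and GGGCGG. Whether the matches go with the size of the rises was not tested. A match of letters is a description of the sequence and not of binding.

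Most of the sterol synthesis genes were higher in the treated cultures than in DMSO at both times. At 6 h with WS1442, 22 of the 36 measured genes rose and none fell, where 3.95% of all genes tested rose and 1.38% fell, 5.33% in either direction (limma, adjusted p under 0.05 over 30966 genes). With the MeOH eluate at 6 h 21 rose and none fell, against 8.43% of all genes that rose and 8.49% that fell (16.9% together). At 24 h WS1442 raised 24 and lowered 2, against 12.4% of all genes that rose and 12.1% that fell (24.5% together), and the MeOH eluate raised 16 and lowered none, against 9.37% that rose and 8.5% that fell (17.9% together). When arrays were scaled by the 75th percentile instead of quantile normalization, the last count became 8 genes higher and 2 lower (Fdps and Srebf1), against 7.4% and 9.9% of all genes at that scaling. The changes were modest in size: 3 genes passed a 2-fold change with the MeOH eluate at 6 h and 1 with WS1442 at 24 h.

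The cultures behind the DMSO group weighed on these counts. Without the first DMSO culture at 6 h, 9 of the 22 genes called with WS1442 kept their call (Hmgcs1, Idi1, Fdft1, Sqle, Cyp51, Msmo1, Hsd17b7, Sc5d and Dhcr7), and the other 13 had adjusted p from 0.0727 to 0.383. In that fit 0.6% of all genes were called higher and 0.2% lower. At 24 h the MeOH eluate count was 10 without the first DMSO culture and 11 without the second, where 6.3% and 10.1% of all genes were called higher. With the mean of all kept probes of a gene in place of its brightest probe, calls were lost for Sc5d, Scd1 and Fads1 with WS1442 and for Hsd17b7 and Fads1 with the MeOH eluate at 6 h. At 24 h calls were lost in that way for Hsd17b7, Mvk, Acaca and Scd1 with WS1442 and for Lss, Hsd17b7, Sc5d, Fads1 and Fads2 with the MeOH eluate. In 30 of the 36 genes all 3 WS1442 arrays lay above both DMSO arrays at 6 h, where 19.9% of all genes did so. With the MeOH eluate at 6 h it was 29 genes, against 25.1% of all genes. At 24 h it was 28 genes with WS1442, against 27% of all genes, and 24 genes with the MeOH eluate, against 21.8%. In 1 gene with WS1442 and 2 with the MeOH eluate at 6 h, and in 3 and 4 at 24 h, all treated arrays lay below both DMSO arrays, where 15.7%, 25%, 24.1% and 21.6% of all genes did so. These are RNA levels of mixed cultures, in which a change in the number of cells of one kind and a change in RNA per cell cannot be told apart.

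**Figure D1:**
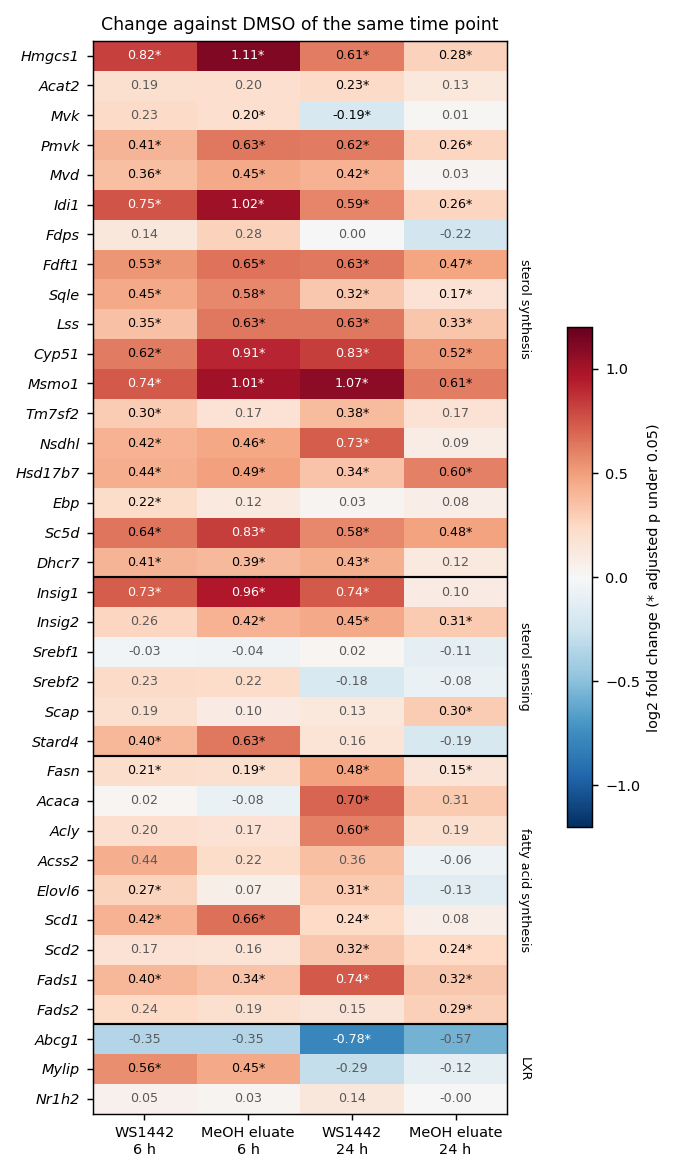
Heat map of the log2 fold change against DMSO of the same time point (colour and printed value) for the 36 measured genes (rows, in 4 lists) in 4 comparisons (columns). An asterisk marks an adjusted p under 0.05. Red fills most cells of the sterol synthesis list, with the highest value for Hmgcs1 with the MeOH eluate at 6 h (1.11) and the lowest of the whole map for Abcg1 with WS1442 at 24 h (-0.78).

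Levels on single arrays are given below as log2 brightness after quantile normalization, and differences as log2 fold changes against DMSO of the same time. The first enzymes of the pathway lead from acetyl-CoA to the isoprenoid units. Acat2 joins 2 molecules of acetyl-CoA, Hmgcs1 adds a further one to form HMG-CoA, Mvk and Pmvk phosphorylate mevalonate, Mvd decarboxylates it and Idi1 interconverts the isoprenoid units. Hmgcs1 read 12.42 and 12.58 with DMSO, 13.29, 13.24 and 13.43 with WS1442 and 13.54, 13.52 and 13.74 with the MeOH eluate at 6 h. The MeOH eluate cultures were the highest, the WS1442 cultures lay between, and no group overlapped another. At 24 h Hmgcs1 stood at 13.04 and 13.06 with DMSO, 13.66, 13.65 and 13.69 with WS1442 and 13.33, 13.36 and 13.31 with the MeOH eluate. Here the order of the treatments was turned round, with WS1442 above the MeOH eluate and DMSO again the lowest. The log2 difference from DMSO at 6 h was 0.82 ± 0.07 (adjusted p = 1.71e-05) with WS1442 and 1.11 ± 0.07 (adjusted p = 1.19e-07) with the MeOH eluate, which is a fold of 1.77 and 2.15 (± gives the SE of limma's fit, as in all differences that follow). At 24 h it was 0.61 ± 0.07 (adjusted p = 3.63e-05) and 0.28 ± 0.07 (adjusted p = 0.00865), and the second value lost its call without the first DMSO culture.

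Idi1, the isopentenyl-diphosphate isomerase, followed the same course. Idi1 read 8.06 and 8.06 with DMSO, 8.73, 8.74 and 8.98 with WS1442 and 9.0, 9.11 and 9.14 with the MeOH eluate at 6 h. At 24 h its probe gave 8.09 and 8.12 with DMSO, 8.66, 8.74 and 8.69 with WS1442 and 8.42, 8.41 and 8.27 with the MeOH eluate. All treated cultures lay above both DMSO cultures at each time. Its log2 difference was 0.75 ± 0.08 and 1.02 ± 0.08 at 6 h with WS1442 and the MeOH eluate (adjusted p = 0.000186 and 1.54e-06), and 0.59 ± 0.08 and 0.26 ± 0.08 at 24 h (adjusted p = 0.000182 and 0.0402). The last of these was close to the threshold and lost its call without either DMSO culture of 24 h, among others. Pmvk read 12.15 and 12.36 with DMSO, 12.60, 12.62 and 12.76 with WS1442 and 12.83, 12.90 and 12.93 with the MeOH eluate at 6 h. The DMSO cultures were again the lowest, with no overlap. At 24 h Pmvk, the phosphomevalonate kinase, stood at 12.54 and 12.50 with DMSO, 13.01, 13.21 and 13.18 with WS1442 and 12.82, 12.80 and 12.70 with the MeOH eluate. It rose in all 4 comparisons, by 0.41 and 0.63 at 6 h and by 0.62 and 0.26 at 24 h (SE 0.07 in each, highest adjusted p = 0.0214). Of these calls, that with WS1442 at 6 h was lost without the first DMSO culture of that time, and that with the MeOH eluate at 24 h without either DMSO culture of 24 h or without the first or the second MeOH eluate culture.

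Mvd rose by 0.36 ± 0.06 and 0.45 ± 0.06 at 6 h and by 0.42 ± 0.06 with WS1442 at 24 h, while with the MeOH eluate at 24 h the difference was 0.03 ± 0.06 (adjusted p = 0.828). Its call with WS1442 at 6 h was lost without the first DMSO culture. The mevalonate kinase gene Mvk changed sign between the times with WS1442. Its difference was 0.23 ± 0.06 (adjusted p = 0.0565) with WS1442 and 0.20 ± 0.06 (adjusted p = 0.0428) with the MeOH eluate at 6 h, and lower than DMSO, at -0.19 ± 0.06 (adjusted p = 0.0457), with WS1442 at 24 h. In fits that left out 1 of the 16 cultures, the call at 6 h was lost 10 times (adjusted p from 0.0515 to 0.189) and the call at 24 h 12 times (adjusted p from 0.0507 to 0.199). A second probe of Mvk, nearly as bright, gave 0.28, 0.27, -0.10 and 0.12 for the same 4 comparisons and passed the test in the first 2. Acat2 differed by 0.19, 0.20 and 0.13 without passing the test and by 0.23 ± 0.07 (adjusted p = 0.0359) with WS1442 at 24 h, a call lost without either DMSO culture of 24 h or without the second or the third WS1442 culture. Fdps, which makes farnesyl diphosphate and stands at the branch to other isoprenoids, passed no test: its differences were 0.14 ± 0.11 and 0.28 ± 0.11 at 6 h and 0.00 ± 0.11 and -0.22 ± 0.11 at 24 h.

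The next 3 enzymes commit farnesyl diphosphate to sterols. Fdft1 is squalene synthase, Sqle the squalene epoxidase and Lss the lanosterol synthase that closes the ring system, and each rose in all 4 comparisons. Fdft1 read 13.11 and 13.20 with DMSO, 13.66, 13.68 and 13.71 with WS1442 and 13.79, 13.84 and 13.80 with the MeOH eluate at 6 h. At 24 h Fdft1 gave 13.43 and 13.60 with DMSO, 14.14, 14.14 and 14.17 with WS1442 and 14.02, 13.97 and 13.94 with the MeOH eluate. The treated cultures lay clear of DMSO at both times, with the MeOH eluate above WS1442 at 6 h and below it at 24 h. The differences from DMSO were 0.53 ± 0.05 and 0.65 ± 0.05 at 6 h and 0.63 ± 0.05 and 0.47 ± 0.05 at 24 h, with adjusted p from 8.68e-07 to 5.24e-05. Sqle read 11.76 and 11.80 with DMSO, 12.17, 12.23 and 12.29 with WS1442 and 12.32, 12.37 and 12.37 with the MeOH eluate at 6 h. At 24 h Sqle gave 11.98 and 11.88 with DMSO, 12.28, 12.22 and 12.22 with WS1442 and 12.09, 12.14 and 12.06 with the MeOH eluate. Sqle followed the same order of groups, with differences of 0.45 and 0.58 at 6 h and of 0.32 and 0.17 at 24 h (adjusted p = 0.000117, 1.68e-06, 0.000271 and 0.02). Lss read 10.39 and 10.56 with DMSO, 10.76, 10.84 and 10.88 with WS1442 and 11.17, 11.07 and 11.07 with the MeOH eluate at 6 h. At 24 h Lss gave 10.55 and 10.54 with DMSO, 11.07, 11.26 and 11.18 with WS1442 and 10.90, 10.82 and 10.90 with the MeOH eluate. Lss was highest with the MeOH eluate at 6 h (0.63 ± 0.07, adjusted p = 1.51e-05) and with WS1442 at 24 h (0.63 ± 0.07, adjusted p = 2.47e-05), and its other differences were 0.35 ± 0.07 (adjusted p = 0.00785) and 0.33 ± 0.07 (adjusted p = 0.00216). A second, dimmer probe of Lss gave 0.30 and 0.34 at 6 h and 0.18 and 0.06 at 24 h. It passed the test only with the MeOH eluate at 6 h. The rise of Lss with WS1442 at 6 h lost its call without the first DMSO culture, and that of Sqle with the MeOH eluate at 24 h without the second DMSO or the second MeOH eluate culture.

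The steps from lanosterol to cholesterol are carried by Cyp51, the lanosterol demethylase, Tm7sf2, a sterol reductase, the methyl-removing enzymes Msmo1, Nsdhl and Hsd17b7, the isomerase Ebp, the desaturase Sc5d and the last reductase, Dhcr7. Msmo1, the C4 methylsterol oxidase, had the smallest adjusted p of the 36 genes over these 4 comparisons. Msmo1 read 12.70 and 12.80 with DMSO, 13.45, 13.49 and 13.54 with WS1442 and 13.77, 13.72 and 13.80 with the MeOH eluate at 6 h. At 24 h Msmo1 stood at 13.14 and 13.07 with DMSO, 14.16, 14.13 and 14.24 with WS1442 and 13.74, 13.69 and 13.71 with the MeOH eluate. The 3 groups were apart from each other at both times, with the MeOH eluate highest at 6 h and WS1442 highest at 24 h. Msmo1 rose by 0.74 ± 0.05 (adjusted p = 1.23e-06) with WS1442 and by 1.01 ± 0.05 (adjusted p = 5.95e-09) with the MeOH eluate at 6 h, and by 1.07 ± 0.05 (adjusted p = 2.12e-08) and 0.61 ± 0.05 (adjusted p = 5.95e-07) at 24 h, a fold of 2.10 with WS1442. A second, dim probe of Msmo1 gave 0.33 and 0.52 at 6 h, of which the latter passed the test, and -0.24 and -0.23 at 24 h, short of the threshold.

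Cyp51 read 11.33 and 11.46 with DMSO, 11.92, 11.99 and 12.14 with WS1442 and 12.22, 12.32 and 12.38 with the MeOH eluate at 6 h. At 24 h Cyp51 gave 11.75 and 11.67 with DMSO, 12.50, 12.51 and 12.60 with WS1442 and 12.24, 12.22 and 12.22 with the MeOH eluate. Its order of groups was that of Msmo1, with no overlap. The differences were 0.62 ± 0.07, 0.91 ± 0.07, 0.83 ± 0.07 and 0.52 ± 0.07 in the order WS1442 and MeOH eluate at 6 h, then the same at 24 h (adjusted p from 5.73e-07 to 0.000122). Sc5d read 9.18 and 9.32 with DMSO, 9.80, 9.91 and 9.96 with WS1442 and 10.07, 10.01 and 10.17 with the MeOH eluate at 6 h. At 24 h Sc5d gave 9.33 and 9.29 with DMSO, 9.91, 9.94 and 9.81 with WS1442 and 9.84, 9.80 and 9.70 with the MeOH eluate. Sc5d lay above DMSO in every treated culture, with differences of 0.64 ± 0.07 and 0.83 ± 0.07 at 6 h and 0.58 ± 0.07 and 0.48 ± 0.07 at 24 h (highest adjusted p = 0.00027). A second, dimmer probe of Sc5d gave 0.23 and 0.64 at 6 h and 0.41 and 0.16 at 24 h and passed no test. Hsd17b7 read 9.53 and 9.59 with DMSO, 9.90, 10.02 and 10.08 with WS1442 and 10.03, 10.04 and 10.08 with the MeOH eluate at 6 h. At 24 h Hsd17b7 gave 9.62 and 9.54 with DMSO, 9.93, 9.86 and 9.98 with WS1442 and 10.18, 10.12 and 10.24 with the MeOH eluate. Hsd17b7, the C3 ketoreductase, was higher with the MeOH eluate than with WS1442 at 24 h, at 0.60 ± 0.06 (adjusted p = 1.07e-05) against 0.34 ± 0.06 (adjusted p = 0.00119), after 0.44 and 0.49 at 6 h. A dim second probe of Hsd17b7 gave -0.41 and -0.35 at 24 h, short of the threshold, and with both probes averaged the difference with WS1442 at 24 h was -0.033.

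Nsdhl read 10.99 and 11.21 with DMSO, 11.42, 11.50 and 11.66 with WS1442 and 11.53, 11.55 and 11.63 with the MeOH eluate at 6 h. At 24 h Nsdhl gave 11.57 and 11.62 with DMSO, 12.24, 12.27 and 12.45 with WS1442 and 11.72, 11.69 and 11.64 with the MeOH eluate. At 24 h the WS1442 cultures stood apart, while the MeOH eluate cultures lay just above DMSO. Nsdhl, the C4 decarboxylase, rose by 0.42 and 0.46 at 6 h (adjusted p = 0.00798 and 0.00111) and by 0.73 with WS1442 at 24 h (adjusted p = 3.26e-05), and differed by 0.09 ± 0.08 (adjusted p = 0.529) with the MeOH eluate at 24 h. Dhcr7, the 7-dehydrocholesterol reductase, rose in the same 3 comparisons, with 0.41 ± 0.06, 0.39 ± 0.06 and 0.43 ± 0.06 in that order, and had 0.12 ± 0.06 (adjusted p = 0.22) with the MeOH eluate at 24 h. A second, dimmer probe of Dhcr7 gave 0.40 and 0.18 at 6 h and 0.19 and 0.09 at 24 h and passed no test. Tm7sf2 rose with WS1442 at both times, by 0.30 and 0.38, and did not pass the test with the MeOH eluate at either (0.17 and 0.17). The 6 h calls of Nsdhl and Tm7sf2 with WS1442 were lost without the first DMSO culture, and that of Tm7sf2 also without the third WS1442 culture. Ebp rose in 1 comparison, WS1442 at 6 h (0.22 ± 0.05, adjusted p = 0.0265), and lost that call without either DMSO culture of 6 h or without the second or the third WS1442 culture. Over the 18 sterol synthesis genes, 15 rose with WS1442 and 14 with the MeOH eluate at 6 h, and 15 and 10 at 24 h, where 1 (Mvk, with WS1442) fell. Of all genes tested, 3.95%, 8.43%, 12.4% and 9.37% rose in that order, and 1.38%, 8.49%, 12.1% and 8.5% fell. The median log2 difference of the 18 genes was 0.42 and 0.53 at 6 h and 0.50 and 0.22 at 24 h. The medians over all genes were -0.006, -0.004, 0.039 and 0.011. Without the first DMSO culture at 6 h, 9 of the 18 were called with WS1442 at that time, with a median of 0.33. In all 4 comparisons 10 genes of the list passed the test, a count for which the share of all genes was not computed. Both treatments shared the DMSO cultures of a time, so the 4 calls of a gene are not independent and the count only describes the list. With the MeOH eluate at 24 h, Hmgcs1, Pmvk, Idi1 and Sqle lost the call by 75th percentile scaling. With all kept probes averaged, Lss, Hsd17b7 and Sc5d lost it. Fdft1, Cyp51 and Msmo1 kept all 4 calls in each limma fit run.

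**Figure D2:**
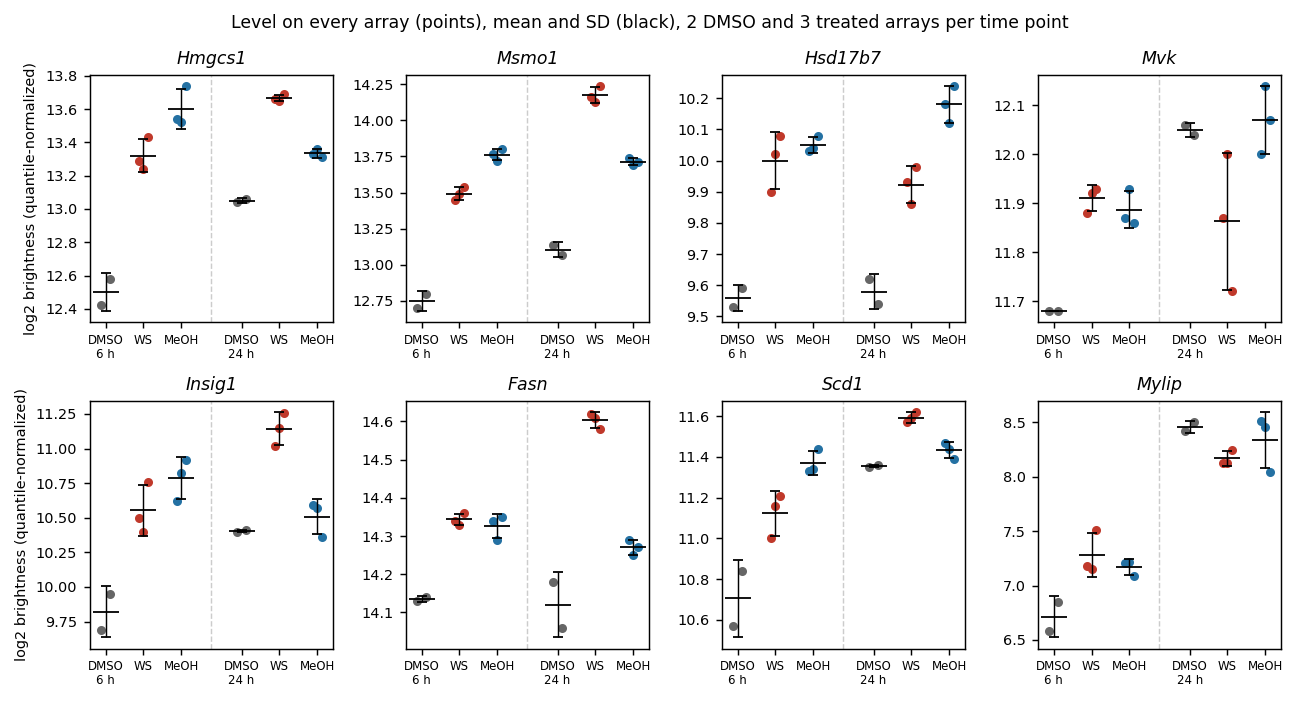
Quantile-normalized log2 brightness (y axis) of 8 genes on every array (points) by group (x axis; WS is WS1442, MeOH the MeOH eluate), with the mean and SD in black, for 2 DMSO and 3 treated cultures per time point; each panel has its own y range and the dashed line parts the 2 slides. Hmgcs1, Msmo1 and Hsd17b7 lie above DMSO in all treated cultures at both times, Mvk and Mylip with WS1442 lie above DMSO at 6 h and below it at 24 h, and the Insig1 levels with the MeOH eluate at 24 h lie on both sides of DMSO.

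Among the genes of sterol sensing, Insig1 and Stard4 rose with both treatments at 6 h, while Srebf1 and Srebf2 passed no test. Insig1, the sterol-dependent anchor of the SCAP complex, read 9.69 and 9.95 with DMSO at 6 h, 10.50, 10.40 and 10.76 with WS1442 and 10.62, 10.82 and 10.92 with the MeOH eluate. At 24 h it read 10.40 and 10.41 with DMSO, 11.02, 11.15 and 11.26 with WS1442 and 10.59, 10.57 and 10.36 with the MeOH eluate. WS1442 cultures were above DMSO at both times, whereas at 24 h the MeOH eluate cultures lay on both sides of DMSO. Insig1 rose by 0.73 ± 0.12 (adjusted p = 0.00302) and 0.96 ± 0.12 (adjusted p = 5.96e-05) at 6 h and by 0.74 ± 0.12 (adjusted p = 0.0004) with WS1442 at 24 h, and differed by 0.10 ± 0.12 (adjusted p = 0.645) with the MeOH eluate at 24 h. The call with WS1442 at 6 h was lost without the first DMSO culture.

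Stard4, a carrier of cholesterol between membranes, rose at 6 h by 0.40 ± 0.09 with WS1442 and 0.63 ± 0.09 with the MeOH eluate, and at 24 h its differences were 0.16 ± 0.09 (adjusted p = 0.199) and -0.19 ± 0.09 (adjusted p = 0.161). The 6 h call with WS1442 did not stand without the first DMSO culture or without the third WS1442 culture. Insig2, the second INSIG protein, rose with the MeOH eluate at both times and with WS1442 at 24 h (0.42, 0.31 and 0.45), with 0.26 ± 0.10 (adjusted p = 0.146) in the remaining comparison. The 6 h call was lost without the first DMSO culture. Its rise with the MeOH eluate at 24 h (adjusted p = 0.041) was lost in several fits without 1 culture, those without any of the 5 DMSO or MeOH eluate cultures of 24 h included. Srebf1 differed by -0.11 to 0.02 from DMSO in all 4 comparisons. Srebf2 differed by 0.23 ± 0.08 and 0.22 ± 0.08 at 6 h and by -0.18 ± 0.08 and -0.08 ± 0.08 at 24 h, none past the threshold, and a second probe about as bright gave 0.04, -0.03, 0.10 and 0.04. Scap, the escort protein of SREBP, rose in 1 comparison, the MeOH eluate at 24 h (0.30 ± 0.06, adjusted p = 0.00169). Of the 6 genes, 2 rose with WS1442 and 3 with the MeOH eluate at 6 h, 2 rose with each at 24 h, and none fell. Among all genes tested, 3.95%, 8.43%, 12.4% and 9.37% rose in that order. Those that fell were 1.38%, 8.49%, 12.1% and 8.5%. The medians of the 6 genes were 0.25, 0.32, 0.15 and 0.01. Without the first DMSO culture of 6 h, 0 were called with WS1442 at that time by limma. The arrays measure the transcripts of Srebf1 and Srebf2 and not the cleaved proteins.

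Of the 9 fatty acid synthesis genes, most rose with WS1442 at 24 h and fewer in the other comparisons. Fasn, the fatty acid synthase, rose in all 4 comparisons. Fasn read 14.13 and 14.14 with DMSO, 14.34, 14.33 and 14.36 with WS1442 and 14.34, 14.29 and 14.35 with the MeOH eluate at 6 h. At 24 h Fasn gave 14.18 and 14.06 with DMSO, 14.62, 14.61 and 14.58 with WS1442 and 14.29, 14.25 and 14.27 with the MeOH eluate. WS1442 at 24 h was clear of every other group. Fasn rose by 0.21 ± 0.04 (adjusted p = 0.00609) and 0.19 ± 0.04 (adjusted p = 0.00326) at 6 h and by 0.48 ± 0.04 (adjusted p = 2.84e-06) and 0.15 ± 0.04 (adjusted p = 0.0119) at 24 h. By 75th percentile scaling the difference with the MeOH eluate at 24 h was -0.0032 and that call was lost, as it was without the second DMSO culture of 24 h and by eBayes without trend. The same scaling also lost the call with the MeOH eluate at 6 h. The call with WS1442 at 6 h was lost without the first DMSO culture of 6 h.

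Acly, the ATP citrate lyase that supplies cytosolic acetyl-CoA, passed the test in 1 comparison, WS1442 at 24 h. Acly read 13.21 and 13.31 with DMSO, 13.37, 13.51 and 13.49 with WS1442 and 13.35, 13.40 and 13.54 with the MeOH eluate at 6 h. At 24 h Acly gave 13.24 and 13.32 with DMSO, 13.85, 13.85 and 13.95 with WS1442 and 13.57, 13.44 and 13.40 with the MeOH eluate. The 3 WS1442 cultures at 24 h lay above all others. The difference there was 0.60 ± 0.07 (adjusted p = 3.54e-05), beside 0.20, 0.17 and 0.19 elsewhere. Acaca, the acetyl-CoA carboxylase that makes malonyl-CoA, likewise rose with WS1442 at 24 h, by 0.70 ± 0.15 (adjusted p = 0.00373). Its 2 DMSO cultures of 24 h were far apart, at 10.88 and 11.73, and the difference was 0.27 without the first of them and 1.13 without the second, past the threshold in both. With the MeOH eluate at 24 h Acaca differed by 0.31 ± 0.15 (adjusted p = 0.197), which became -0.12 without the first DMSO culture and 0.73 (adjusted p = 9.75e-07) without the second. At 6 h its differences were 0.02 ± 0.15 and -0.08 ± 0.15.

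Fads1, the delta-5 desaturase of polyunsaturated fatty acids, rose in all 4 comparisons. Fads1 read 11.89 and 12.05 with DMSO, 12.29, 12.36 and 12.45 with WS1442 and 12.31, 12.27 and 12.35 with the MeOH eluate at 6 h. At 24 h Fads1 gave 12.59 and 12.56 with DMSO, 13.23, 13.25 and 13.46 with WS1442 and 12.99, 12.84 and 12.87 with the MeOH eluate. Treated and DMSO cultures did not overlap at either time. Its differences were 0.40 ± 0.07, 0.34 ± 0.07, 0.74 ± 0.07 and 0.32 ± 0.07 (adjusted p = 0.00741, 0.00508, 2.01e-05 and 0.00595), and both 6 h calls were lost without the first DMSO culture. A second, dim probe of Fads1 gave 0.34 and 0.27 at 6 h and -0.09 and 0.05 at 24 h and passed no test. With both probes averaged the call with WS1442 at 24 h stood (0.32, adjusted p = 0.0311) and the other 3 were lost, as was that with the MeOH eluate at 24 h by 75th percentile scaling. Scd1, the stearoyl-CoA desaturase, had its largest rise at 6 h. Scd1 read 10.57 and 10.84 with DMSO, 11.00, 11.16 and 11.21 with WS1442 and 11.33, 11.34 and 11.44 with the MeOH eluate at 6 h. At 24 h Scd1 gave 11.35 and 11.36 with DMSO, 11.57, 11.59 and 11.62 with WS1442 and 11.47, 11.44 and 11.39 with the MeOH eluate. At 24 h the treated cultures lay just above DMSO. Scd1 rose by 0.42 ± 0.07 (adjusted p = 0.00596) and 0.66 ± 0.07 (adjusted p = 3.05e-05) at 6 h and by 0.24 ± 0.07 (adjusted p = 0.0285) with WS1442 at 24 h, and differed by 0.08 ± 0.07 (adjusted p = 0.57) with the MeOH eluate. A dim second probe of Scd1 gave 0.43 and 0.48 at 6 h and -0.06 and -0.33 at 24 h and passed no test. Without the first DMSO culture the call with WS1442 at 6 h was lost, and the call at 24 h was lost without either DMSO culture of that time or without the second or the third WS1442 culture.

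Of the other desaturases and elongases, Scd2 rose at 24 h with both treatments (0.32 and 0.24, the second lost without either DMSO culture of 24 h), Elovl6 rose with WS1442 at both times (0.27 and 0.31), and Fads2 rose with the MeOH eluate at 24 h (0.29 ± 0.07, adjusted p = 0.0123), a call lost without the first DMSO culture. The Elovl6 call at 6 h was lost without any 1 of the 2 DMSO cultures or of the second and the third WS1442 culture. A second probe of Fads2 passed the test at 6 h, with 0.55 and 0.42, and with the MeOH eluate at 24 h. A dimmer probe of Fads2 gave 0.24 and 0.01 at 6 h and -0.07 and 0.14 at 24 h and passed no test. The dimmest kept probe of Fads2 gave 0.28 and 0.23 at 6 h and 0.24 and -0.02 at 24 h and also passed no test. Acss2, the cytosolic acetyl-CoA synthetase, passed no test, with differences from -0.06 ± 0.18 to 0.44 ± 0.18. In all, 4 and 3 of the 9 genes rose at 6 h with WS1442 and the MeOH eluate, and 7 and 4 at 24 h, and none fell. The shares of all genes that rose were 3.95%, 8.43%, 12.4% and 9.37% in that order. Those that fell were 1.38%, 8.49%, 12.1% and 8.5%. The medians of the 9 genes were 0.24 and 0.19 at 6 h and 0.36 and 0.19 at 24 h. Without the first DMSO culture of 6 h, 0 of the 9 were called with WS1442 at 6 h by limma, with a median of 0.24, and without the first DMSO culture of 24 h the count with the MeOH eluate at 24 h was 2.

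Of the 3 LXR genes measured, 1 rose with each treatment at 6 h and 1 fell with WS1442 at 24 h. Among all genes tested, 3.95% and 8.43% rose at 6 h with WS1442 and the MeOH eluate, and 12.1% fell with WS1442 at 24 h. With 3 genes, a count of 1 says little about the list. Nr1h2, which encodes LXR beta, differed by 0.05 ± 0.06 and 0.03 ± 0.06 at 6 h and by 0.14 ± 0.06 and 0.00 ± 0.06 at 24 h, and passed no test. Abcg1, a cholesterol exporter, read 6.27 and 6.4 with DMSO, 5.26, 5.74 and 5.67 with WS1442 and 6.05, 5.44 and 5.81 with the MeOH eluate at 24 h. It fell with WS1442 at 24 h (-0.78 ± 0.21, adjusted p = 0.0152), a call lost without either DMSO culture of 24 h or the first WS1442 culture, and its other differences were -0.35 ± 0.21, -0.35 ± 0.21 and -0.57 ± 0.21. Mylip encodes the ubiquitin ligase that marks lipoprotein receptors for degradation. It read 6.58 and 6.85 with DMSO, 7.18, 7.15 and 7.51 with WS1442 and 7.21, 7.22 and 7.09 with the MeOH eluate at 6 h, so that every treated culture was above both DMSO cultures. Mylip rose by 0.56 ± 0.14 (adjusted p = 0.0308) and 0.45 ± 0.14 (adjusted p = 0.0356) at 6 h, and at 24 h the differences were -0.29 ± 0.14 (adjusted p = 0.147) and -0.12 ± 0.14 (adjusted p = 0.646). Both 6 h calls were lost without the first DMSO culture, that with WS1442 also without the third WS1442 culture and that with the MeOH eluate without any 1 of its 3 cultures.

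Neighbouring lists of lipid genes, chosen outside the 37, are given beside these counts. The 37 genes and these lists were chosen with earlier results of these data known, so the lists are not an independent frame. Over all genes, 3.95% rose and 1.38% fell with WS1442 at 6 h, and 8.43% and 8.49% with the MeOH eluate. At 24 h these shares were 12.4% and 12.1% with WS1442 and 9.37% and 8.5% with the MeOH eluate. Of 23 other sterol and isoprenoid genes (later branches, SREBP proteases, transport and the factors NF-Y and Sp1), 0 and 3 rose and 1 and 2 fell at 6 h with WS1442 and the MeOH eluate, and 4 and 5 rose and 4 and 3 fell at 24 h, with medians of 0.07, 0.01, 0.11 and -0.04. Vldlr, a lipoprotein receptor of this list, fell in all 4 comparisons, with differences of -0.45 ± 0.11 and -0.89 ± 0.11 at 6 h and -0.73 ± 0.11 and -1.46 ± 0.11 at 24 h. Of 20 other fatty acid and glycerolipid genes measured, 4, 5, 4 and 2 rose and 0, 1, 1 and 2 fell in the same order, with medians of 0.14, 0.12, -0.02 and -0.04. Lpin1, a phosphatidate phosphatase of that list, had 0.50 ± 0.11 (adjusted p = 0.0187), 0.84 ± 0.11 (adjusted p = 0.000127), 0.64 ± 0.11 (adjusted p = 0.000752) and 0.12 ± 0.11 (adjusted p = 0.533). Of the 6 other LXR genes none passed the test at 6 h, while 3 and 2 rose and 2 and 1 fell at 24 h. Pltp, the phospholipid transfer protein, and Arl4c, a small GTPase, were the 2 that rose with both treatments at 24 h, by 0.56 and 0.58 and by 0.55 and 0.58. Of 11 fatty acid oxidation genes measured, 3, 1, 4 and 3 rose and 0, 0, 1 and 0 fell, with medians of 0.17, 0.01, 0.05 and 0.11. The difference between lists was not tested.

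**Figure D3:**
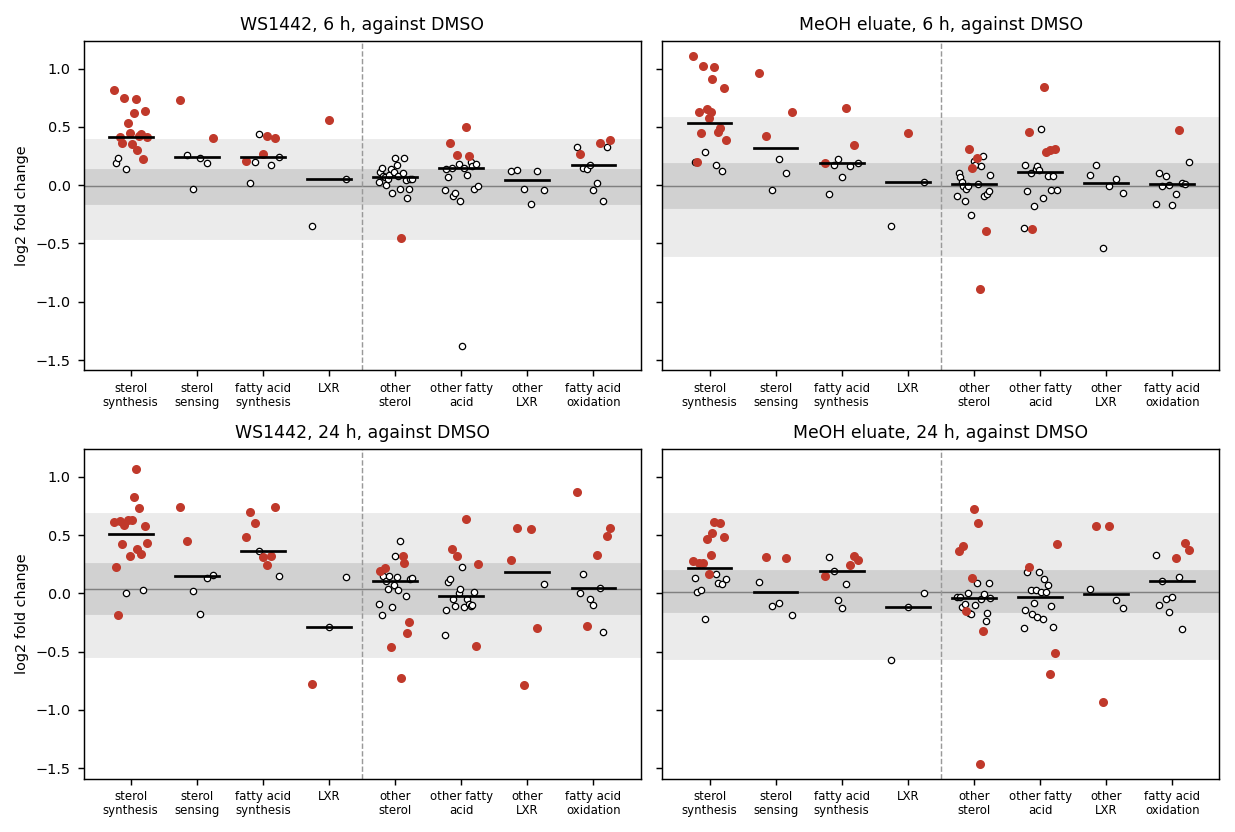
Log2 fold change against DMSO (y axis) of every gene (points; red, adjusted p under 0.05) in the 4 lists described here, left of the dashed line, and 4 neighbouring lists, right of it, in the 4 comparisons (panels). Black bars are list medians, and the grey bands span the quartiles of all 30966 genes (-0.16 to 0.13 for WS1442 at 6 h) and a wider central range (-0.46 to 0.39); the sterol synthesis median is 0.42, 0.53, 0.50 and 0.22.

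The treatments were then set against each other, which uses no DMSO culture in the difference, although the doses differ (0.25 mg/mL of the extract, 0.1 mg/mL of the eluate). At 6 h the MeOH eluate cultures were higher than the WS1442 cultures in 7 genes and lower in 1, against 4.68% and 7.51% of all genes (12.2% together). The 7 were Hmgcs1 (0.28 ± 0.06, adjusted p = 0.0102), Cyp51 (0.29 ± 0.06, adjusted p = 0.00747), Lss (0.28 ± 0.06, adjusted p = 0.00897), Msmo1 (0.27 ± 0.04, adjusted p = 0.00121), Idi1 (0.27), Pmvk (0.22) and the desaturase Scd1 (0.24), and the 1 lower gene was Elovl6 (-0.19 ± 0.06, adjusted p = 0.0447). This split depended on the scaling: with 75th percentile scaling 1 gene was higher (Msmo1) and 3 were lower (Ebp, Elovl6 and Scap), against 3.3% and 12.8% of all genes at that scaling. The call of Msmo1 stood in each limma fit run, and those of Hmgcs1, Lss and Cyp51 in each fit without 1 culture, while the count fell to 4 without the second WS1442 culture or the third MeOH eluate culture of 6 h, and to 5 without the first WS1442, the first MeOH eluate or the second MeOH eluate culture. The call of Elovl6 was lost in most of these fits.

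At 24 h 19 genes were lower with the MeOH eluate than with WS1442 and 3 were higher, against 6.89% and 7.5% of all genes (14.4% together). The lower genes were 12 of the 18 sterol synthesis genes, 3 of the 6 sterol sensing genes and 4 of the 9 fatty acid synthesis genes. Among them were Nsdhl (-0.64 ± 0.07, adjusted p = 0.000117), Insig1 (-0.63 ± 0.10, adjusted p = 0.00121), Msmo1 (-0.46 ± 0.04, adjusted p = 2.79e-05), Elovl6 (-0.44 ± 0.06, adjusted p = 0.00035), Acly (-0.41 ± 0.06, adjusted p = 0.000579), Fads1 (-0.41), Mvd (-0.39) and Fasn (-0.33 ± 0.03, adjusted p = 6.86e-05). Those higher were Hsd17b7 (0.26 ± 0.06, adjusted p = 0.00684), Mvk (0.20 ± 0.06, adjusted p = 0.0295) and Scap (0.17 ± 0.05, adjusted p = 0.0389). With 75th percentile scaling 15 were lower and 2 higher, against 5.8% and 7.3% of all genes. In the fits that left out 1 culture the count ranged from 16 to 22, and the calls of Mvk and Scap were among those lost. Acaca, at -0.39 ± 0.13 (adjusted p = 0.066), passed the test when either DMSO culture of 24 h was left out (adjusted p = 6.97e-05 without the first). The calls of 13 genes stood in each limma fit run, among them Nsdhl, Insig1, Msmo1, Elovl6, Acly and Fasn.

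Last, the effect at 24 h was set against the effect at 6 h, each relative to the DMSO cultures of its own slide. With the MeOH eluate 11 genes had a smaller effect at 24 h and none a larger one, against 3.69% and 3.83% of all genes (7.52% together). They were 8 sterol synthesis genes, Insig1, Stard4 and Scd1. The change in effect was -0.86 ± 0.16 (adjusted p = 0.00408) for Insig1, -0.82 ± 0.12 (adjusted p = 0.000741) for Stard4, -0.82 ± 0.10 (adjusted p = 9.01e-05) for Hmgcs1, -0.76 ± 0.12 (adjusted p = 0.000832) for Idi1 and -0.58 ± 0.10 (adjusted p = 0.00274) for Scd1. For Insig1, Hmgcs1, Idi1, Scd1, Stard4, Mvd, Sqle and Msmo1 the call stood in each limma fit run, while those of Pmvk, Cyp51 and Sc5d were lost without, among others, the first DMSO culture of either time (8 genes called without that of 6 h and 9 without that of 24 h, where 2.0% and 2.5% of all genes had a smaller effect). The DMSO cultures of 24 h read higher than those of 6 h for Hmgcs1 (13.05 ± 0.02 and 12.50 ± 0.11, mean ± SD, n = 2), Scd1 (11.35 ± 0.01 and 10.71 ± 0.19) and Insig1 (10.41 ± 0.01 and 9.82 ± 0.18), a difference in which time and slide cannot be told apart. The DMSO levels of the 2 times were closer for Idi1 (8.11 ± 0.02 and 8.06 ± 0.01), Sc5d (9.31 ± 0.03 and 9.25 ± 0.10) and Sqle (11.93 ± 0.07 and 11.78 ± 0.02). The DMSO differences of the other genes of the 11 lay between these.

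With WS1442 7 genes differed between the times: 4 had a larger and 3 a smaller effect at 24 h, against 5.51% and 6.92% of all genes (12.4% together). The larger effects were those of Acly (0.41 ± 0.09, adjusted p = 0.0132), Fads1 (0.34 ± 0.10, adjusted p = 0.0453), Msmo1 (0.33 ± 0.07, adjusted p = 0.0061) and Fasn (0.27 ± 0.05, adjusted p = 0.00661), and the smaller those of Mylip (-0.85 ± 0.20, adjusted p = 0.0128), Mvk (-0.42 ± 0.09, adjusted p = 0.0103) and Srebf2 (-0.41 ± 0.12, adjusted p = 0.0376). With 75th percentile scaling 0 were larger and 6 smaller (Ebp, Hmgcs1, Mvk, Mylip, Sqle and Srebf2), against 4.3% and 11.4% of all genes at that scaling, so that the larger effects at 24 h depended on the normalization, and the call of Mvk alone stood in each limma fit run. The count was 4 without the second DMSO culture of 6 h and 4 without the first DMSO culture of 24 h. Averaging all probes turned the sign for Msmo1 (-0.12) and Fads1 (-0.047), normexp background correction that for Srebf2 (0.049) and scaling that for Fasn (-0.0012).

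**Figure D4:**
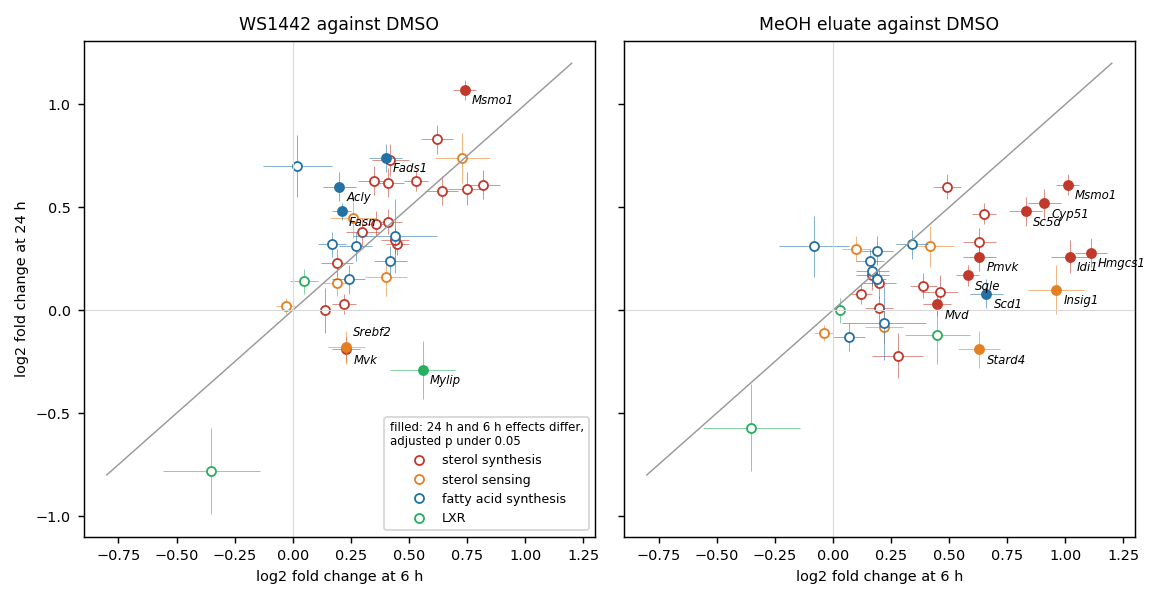
Log2 fold change against DMSO at 6 h (x axis) and at 24 h (y axis) of the 36 genes, with SE bars, for WS1442 (left) and the MeOH eluate (right); colours give the 4 lists, filled points have effects that differ between the times (adjusted p under 0.05), and the line marks equal effects. With the MeOH eluate the 11 filled points lie below the line, among them Hmgcs1 (1.11 and 0.28) and Insig1 (0.96 and 0.10).

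Some markers of other cell types moved in the same comparisons. Over all genes, 3.95% and 8.43% rose and 1.38% and 8.49% fell at 6 h with WS1442 and the MeOH eluate. At 24 h 12.4% and 9.37% rose and 12.1% and 8.5% fell. Of 5 mesoderm markers 2, 2, 2 and 3 fell with WS1442 and the MeOH eluate at 6 h and with each at 24 h, and none rose. Their median differences were -0.07, 0.05, -0.20 and -0.48. Their summed brightness ran from 3618 to 3632 with DMSO, 2549 to 2871 with WS1442 and 1832 to 1941 with the MeOH eluate at 6 h and from 3025 to 3074, 2450 to 2574 and 1894 to 2163 at 24 h, and Mixl1, an early mesendoderm factor, fell in all 4 comparisons (-0.99 and -2.39 on the log2 scale at 6 h). Mixl1 had the largest fall of this list at 6 h and carried most of the change in the sum there. Mesp1, Kdr and Pdgfra passed no test at 6 h (with the MeOH eluate 0.14, 0.08 and 0.05). At 24 h Mesp1 fell with WS1442 (-0.66 ± 0.14, adjusted p = 0.00361) and with the MeOH eluate (-0.48 ± 0.14, adjusted p = 0.0283). Eomes fell with WS1442 and the MeOH eluate at 6 h (-0.39 and -0.91) and with the MeOH eluate at 24 h (-0.74). Of 8 endoderm markers 5 were measured, of which 1, 3, 1 and 2 fell and 0, 0, 1 and 0 rose, while Ttr, Apob and Amn were not well above background. The pluripotency marker Pou5f1 differed by 0.00 ± 0.06 and -0.01 ± 0.06 at 6 h and 0.04 ± 0.06 and 0.09 ± 0.06 at 24 h, and of 7 pluripotency markers 0, 2, 2 and 0 fell. Nanog (-0.94 ± 0.17, adjusted p = 0.0017) and Dppa5a (-0.20 ± 0.04, adjusted p = 0.00621) fell with the MeOH eluate at 6 h. Sox2 (-0.57 ± 0.15, adjusted p = 0.0138) and Dppa5a (-0.30 ± 0.04, adjusted p = 0.000302) fell with WS1442 at 24 h. Of 3 neuroectoderm markers measured, 0, 1, 3 and 2 rose. Pax6, among those that rose with both treatments at 24 h, was dim, with 3.4 and 4.3 in the DMSO cultures of 24 h. There 1 of the 2 DMSO arrays was well above background. Of 7 cardiac genes 5 were measured and Myh6 and Myh7 were not well above background. None passed the test at 6 h. At 24 h Tnnt2 fell with both treatments, with differences of -0.35 ± 0.12 (adjusted p = 0.0457) and -0.51 ± 0.12 (adjusted p = 0.00835), and Mef2c rose with WS1442 (0.48 ± 0.13, adjusted p = 0.0155). The part of these shifts in the lipid gene values was not tested.

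Replicate arrays of a group correlated at r from 0.9836 to 0.9949 over all genes, lowest for the 2 DMSO cultures of 24 h. Between 55.1% and 63.0% of the gene spots were well above background, and the RNA integrity number was 8.6 for the second WS1442 culture of 24 h and between 9.6 and 10 for the others. Nothing in the labels says that the cultures of a group came from separate experiments, so the p-values measure the spread between these cultures.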

How the data were processed

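RNA of 16 cultures (2 DMSO, 3 WS1442 and 3 MeOH eluate at 6 h and again at 24 h) was labelled with Cy3 and hybridised to one-colour Agilent arrays. Per the file headers, Agilent Feature Extraction 11.5.1.1 made the deposited spot intensities, subtracting background and detrending them within each array. The authors' quantile-normalized intensities on a linear scale, deposited as a table of the series, were used as an alternative after log2 and gave the same counts of calls among the 36 genes, though not over all genes. Here the processed intensities were quantile-normalized over 16 arrays, taken to log2, and fitted with limma 3.58.1 (R 4.3.3) as 6 group means, with eBayes and a trend. Spots marked as non-uniform were left out, probes were kept if all arrays of 1 or more groups had them well above background (36729 of 60273), the brightest kept probe stood for each gene, and p-values were adjusted by Benjamini-Hochberg over 30966 genes, with a call at 0.05. The number of arrays limits the precision.

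The probes used for the 36 measured genes were named through RefSeq accessions, since the files give a gene name for only some of them. Array-by-array values are given for the 15 called genes with the smallest adjusted p against DMSO and, chosen after their values were seen, for Insig1, Abcg1, Mylip and the DMSO cultures of Acaca at 24 h, and comparison lists are illustrated by at most 5 genes with the smallest adjusted p. The genes and lists were chosen with earlier results of these data known. Alternatives were other scalings, background corrections, filters and probe rules, the methods' t-test, a replicate block and leaving out each culture. The procedure was tested on simulated data with 200 changed genes.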

Additional observations from a re-analysis of the deposited data

Results flagged for a closer look

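The effect against DMSO differed between 24 h and 6 h, by limma's test of the difference itself (adjusted p under 0.05 over all genes), in 7 genes with WS1442 and in 11 with the MeOH eluate. With WS1442 the change in effect, 24 h minus 6 h on the log2 scale, was 0.41 for Acly, 0.34 for Fads1, 0.33 for Msmo1, 0.27 for Fasn, -0.41 for Srebf2, -0.42 for Mvk and -0.85 for Mylip. With the MeOH eluate it was -0.86 for Insig1, -0.82 for Hmgcs1, -0.82 for Stard4, -0.76 for Idi1, -0.58 for Scd1, -0.43 for Mvd, -0.41 for Sqle, -0.40 for Msmo1, -0.39 for Cyp51, -0.37 for Pmvk and -0.36 for Sc5d. Each effect was taken within the slide of its time point, and the DMSO groups behind them held 2 cultures each.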

How the results depend on the processing

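Leaving out 1 culture at a time, the number of the 36 genes called ranged from 9 to 24 with WS1442 and from 17 to 22 with the MeOH eluate at 6 h, from 22 to 26 and from 10 to 17 at 24 h, from 4 to 8 and from 16 to 22 between the treatments at 6 h and 24 h, and from 4 to 8 and from 8 to 15 for the change of effect between the times with WS1442 and the MeOH eluate. Scaling to the 75th percentile gave 10 for the MeOH eluate at 24 h and 4 between the treatments at 6 h, where no filter on dim probes and eBayes without trend gave 5 each and a fit within the time point 3. The mean of all kept probes gave 4 for the change of effect with WS1442. The methods' t-test after adjustment called 0 with WS1442 and 0 with the MeOH eluate at 6 h, 0 and 1 at 24 h, and 0 and 5 between the treatments at 6 h and 24 h, against 25, 24, 26, 19, 14 and 25 at an unadjusted p under 0.05. Signs turned for Msmo1 (-0.12) and Fads1 (-0.047) in the change of effect with WS1442 and for Hsd17b7 (-0.033) with WS1442 at 24 h under the mean of all kept probes, for Srebf2 (0.049) in the change of effect with WS1442 under normexp, and for Fasn with the MeOH eluate at 24 h (-0.0032) and in the change of effect with WS1442 (-0.0012) under 75th percentile scaling. The causes were not tested. Deviations of same-numbered cultures correlated at r from -0.235 to 0.303, so the numbers were not taken to pair them, and with a replicate block the counts were 19, 20, 24, 14, 7, 18, 6 and 12 in the order above.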
